A study of Homo sapiens with 10 samples.

Results

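Dexamethasone, a synthetic glucocorticoid, was given for 1 h to A549 cells that carried an excess of EP300, and the response was read in 4 RNA-seq libraries out of 10 in the series. A549 is an established human lung adenocarcinoma line. All cells had been transfected with 1 ug of plasmid, which encoded either EP300 in frame with green fluorescent protein or the fluorescent protein alone, and were kept in charcoal-stripped serum, which is low in steroids. At 48 h the cells received 100 nM dexamethasone in the Dex groups or ethanol in the EtOH groups, and after 1 h they were fixed in ethanol and the fluorescent cells were sorted. The comparison described here is P300 Dex, with replicate numbers 1 and 2, against P300 EtOH, with the same numbers, read as pair 1 and pair 2. The 3 GFP Dex and 3 GFP EtOH libraries, which carry the plasmid without EP300, are used to show where the P300 cells differed. They also enter the scaling of the levels and some alternative fits. Nothing in the labels states that the replicates came from different cultures, and a p-value here reflects only how the libraries scatter, some of which may be technical.

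Glucocorticoids bind the glucocorticoid receptor, encoded by NR3C1, which sits in the cytoplasm with heat shock protein chaperones until hormone arrives and then acts in the nucleus as a transcription factor. It turns on genes that damp inflammation, alter fuel use and feed back on the receptor itself, and it lowers the transcription of many inflammatory genes that depend on NF-kB and AP-1. EP300 is a histone acetyltransferase that such transcription factors recruit as a coactivator, and CREBBP is its close paralog.

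EP300 itself checked the labels. It took 28.8% of all gene counts in P300 Dex 1 and 2.42% in P300 Dex 2, against 28.6% in P300 EtOH 1 and 13.4% in P300 EtOH 2, while the 6 GFP libraries held 0.0271% to 0.0386%. EP300 was thus level within pair 1 and unequal within pair 2, and its part in the results of pair 2 was not tested. Its counts were taken out before any scaling, which left 8154466 and 8992790 counts in P300 Dex 1 and 2, against 7550096 and 1973171 counts in P300 EtOH 1 and 2. P300 EtOH 2 had none of 3623 of the 16652 tested genes (21.8%), against 0.829% and 2.96% of them in P300 Dex 1 and 2 and 2.36% in P300 EtOH 1. At its depth 3 counts are worth 1.36 CPM (counts scaled to 1000000 per library, with TMM factors), so a gene below that level could not be told from absent there. The libraries kept the keratins of the epithelial line. KRT8 had 4148 and 14290 CPM in P300 Dex, against 4259 and 6356 CPM in P300 EtOH. Of the erythroid and immune marker genes, each had at most 48 counts in any P300 library, and PTPRC, which marks all leukocytes, was at 0 in both P300 Dex libraries and in P300 EtOH 2. The endothelial markers CDH5 and VWF summed to 12.9 and 3.71 CPM in P300 Dex, against 5.74 and 23.2 CPM in P300 EtOH, and 5 fibroblast markers, mostly COL1A1, to 54.0 and 62.8 CPM against 69.7 and 73.6 CPM.

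After 1 h of dexamethasone, 7 of the 16652 genes tested rose in P300 cells (0.042%) and 0 fell (0%), by edgeR's quasi-likelihood test with replicate number as a block and a Benjamini-Hochberg adjusted p under 0.05. The risers were TSC22D3, PDK4, FKBP5, SLC22A5, CEBPD, HIST1H2BO and RMRP. The first 5 of these also rose in GFP cells, where the same fit called 171 rises (1.02%) and 106 falls (0.635%) among 16696 genes, so 71.4% of the P300 calls and 2.92% of the GFP rises were shared. At an unadjusted p under 0.05 the P300 fit had 313 genes above 0 (1.88%) and 159 below 0 (0.955%). These calls depend on the method. edgeR's newer quasi-likelihood method, tried after seeing the data, called 0 genes in the same libraries, with 359 at an unadjusted p under 0.05, and called 178 rises and 108 falls in GFP cells. DESeq2 called 3 rises and limma-voom 1, with 481 and 814 genes at an unadjusted p under 0.05, and neither called a fall. In the account of single genes, rose refers to the 7 calls. In such bulk samples a change in the share of responding cells and a change in RNA per cell cannot be told apart.

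TSC22D3 encodes GILZ, a leucine zipper protein that binds NF-kB and AP-1 and carries part of the anti-inflammatory action of glucocorticoids. It had 51.0 and 400.4 CPM in P300 Dex 1 and 2, against 11.6 and 52.7 CPM in P300 EtOH 1 and 2. Both dexamethasone libraries lay above their own ethanol partner, although P300 Dex 1 was slightly below P300 EtOH 2, so the groups overlap and only the pairing separates them. The log2 ratio was 2.12 in pair 1 (95% counting interval 1.81 to 2.47) and 2.92 in pair 2 (2.66 to 3.21), and the edgeR fit gave 2.43 ± 0.41 (SE, adjusted p = 7.58e-05). Such intervals come from the exact conditional binomial distribution of the 2 counts, so they hold counting error alone and no scatter between replicates. PCR copies of a molecule are counted more than once when no molecular identifier marks them, so the intervals can be too narrow.

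FKBP5 encodes a co-chaperone that lowers the affinity of the receptor for hormone, and its induction is a feedback on the receptor. Its level was 35.9 and 146.6 CPM in P300 Dex 1 and 2, against 8.36 and 12.3 CPM in P300 EtOH 1 and 2. The lowest dexamethasone library was above the highest ethanol library, as for 16% of all genes tested. The ratio was 2.08 in pair 1 (1.72 to 2.51) and 3.56 in pair 2 (3.03 to 4.19) on the log2 scale, and the fit gave 2.71 ± 0.55 (SE, edgeR adjusted p = 0.00270).

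PDK4 encodes a kinase that shuts off pyruvate dehydrogenase and so spares glucose. It had 88.2 and 291.5 CPM in P300 Dex 1 and 2, against 16.1 and 63.6 CPM in P300 EtOH 1 and 2. The groups did not overlap, as for 16% of all genes with P300 Dex the higher. The pairs were close, with log2 ratios of 2.44 (2.18 to 2.73) and 2.19 (1.95 to 2.45). The fitted log2 change was 2.22 ± 0.41 (SE, edgeR adjusted p = 0.000743).

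SLC22A5, a carnitine transporter, and CEBPD, a transcription factor of the acute phase and of fat cell differentiation, rose mostly in pair 2. SLC22A5 had 78.9 and 205.4 CPM in P300 Dex, against 48.8 and 5.91 CPM in P300 EtOH, which are 672 and 1661 counts against 391 and 13 counts. Its log2 ratio was 0.69 in pair 1 (0.51 to 0.88) and 5.07 in pair 2 (4.34 to 6.03), and the fitted 2.54 ± 0.51 (SE, edgeR adjusted p = 0.00270) lies between values that do not meet. CEBPD had 44.3 and 439.9 CPM in P300 Dex, against 23.97 and 31.8 CPM in P300 EtOH. Its log2 ratio was 0.88 in pair 1 (0.63 to 1.14) and 3.78 in pair 2 (3.45 to 4.15), and the fit gave 2.21 ± 0.44 (SE, edgeR adjusted p = 0.00234). In GFP cells the pairs gave CEBPD 0.98, 0.51 and 0.92, close to P300 pair 1.

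HIST1H2BO, a histone H2B gene, and RMRP, the RNA of the ribonuclease MRP complex, rose in P300 cells without a call in GFP cells. HIST1H2BO had 47.9 and 139.5 CPM in P300 Dex, against 7.12 and 28.6 CPM in P300 EtOH, with log2 ratios of 2.72 (2.35 to 3.18) and 2.28 (1.92 to 2.67). The fit gave 2.41 ± 0.51 (SE, edgeR adjusted p = 0.00780), while the GFP pairs were at 0.29, -0.32 and 0.25. RMRP had 3658 and 8167 CPM in P300 Dex, against 1054 and 2536 CPM in P300 EtOH. Its log2 ratios were 1.80 and 1.69, with a fit of 1.64 ± 0.38 (SE, edgeR adjusted p = 0.0411). The GFP pairs of RMRP were all above 0, at 0.749, 0.061 and 0.195. The GFP fit of RMRP gave 0.36 ± 0.12 (SE, edgeR adjusted p = 0.176). The difference from the GFP response did not pass for either gene, at 2.38 ± 0.49 for HIST1H2BO and 1.398 ± 0.27 for RMRP (SE, edgeR adjusted p = 0.477 for both).

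Both transcripts belong to classes whose ends are not, or not mainly, polyadenylated. Without RMRP, 6 more such RNAs (RPPH1, RN7SK, RN7SL1, RN7SL2, TERC and SCARNA2), a set picked after their values were seen, summed to 8485 and 20600 CPM in P300 Dex, against 5473 and 10740 CPM in P300 EtOH. The same sum was 6669, 9944 and 4446 CPM in GFP Dex, against 4626, 10990 and 5263 CPM in GFP EtOH. Without HIST1H2BO, 65 replication-dependent histone genes summed to 996.4 and 2723 CPM in P300 Dex, against 959.3 and 1095 CPM in P300 EtOH, so the histone sum was nearly level in pair 1 and higher with dexamethasone in pair 2. The protocols name a total RNA kit and a poly(A) selection kit without assigning them to libraries, and the part of library preparation in these 2 calls was not tested.

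**Figure D1:**
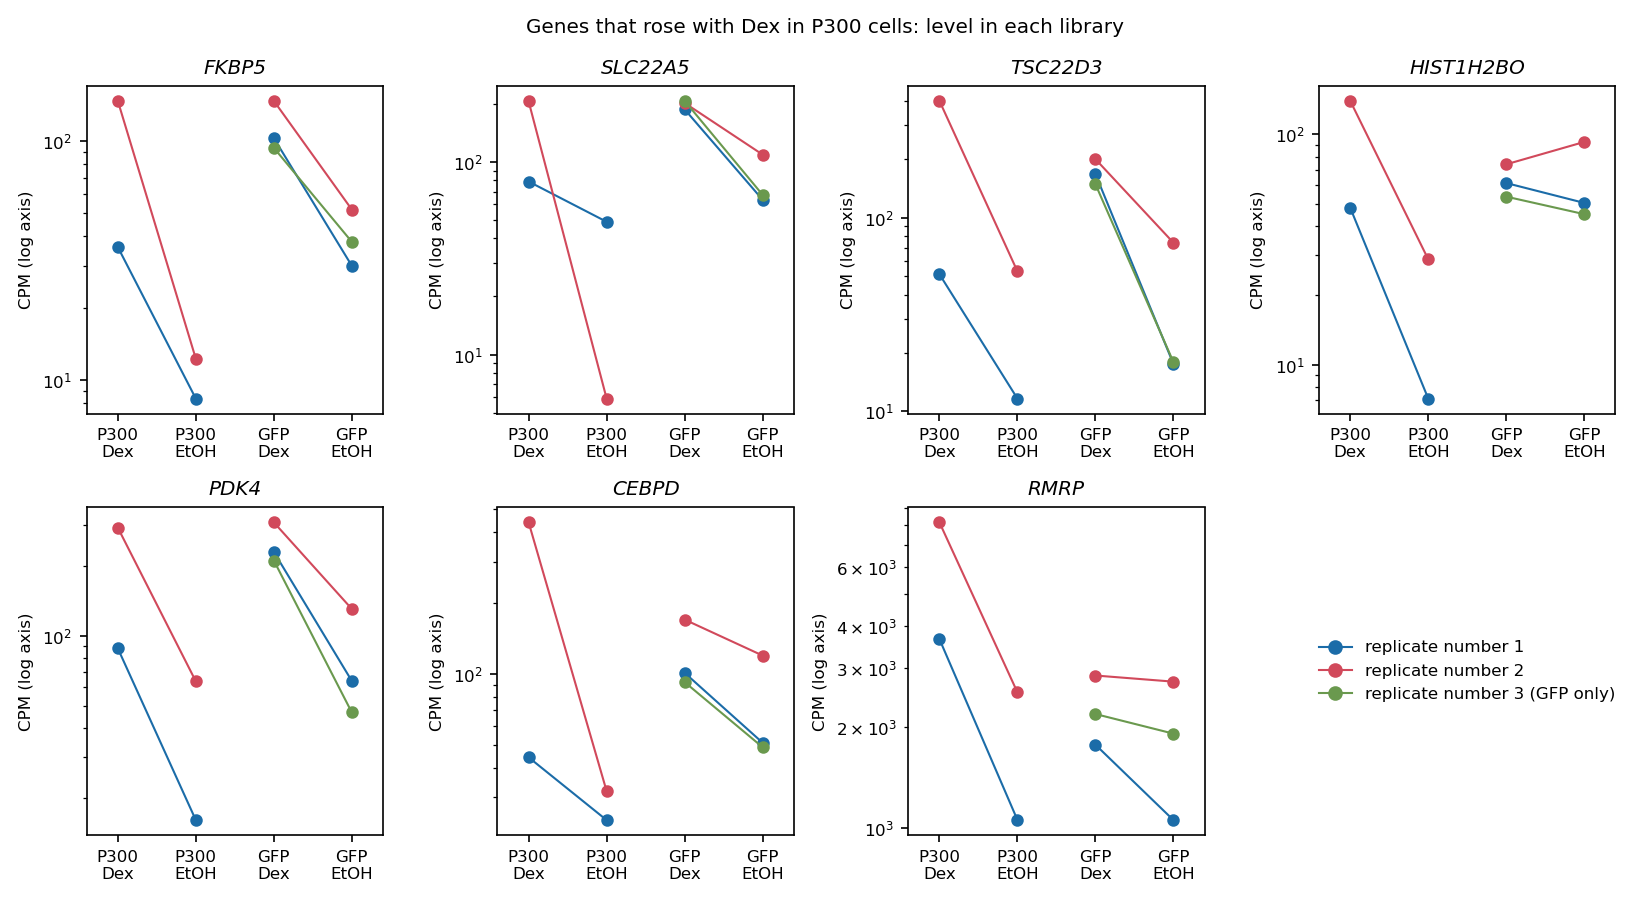
CPM (log axis) of the 7 genes that rose with dexamethasone in P300 cells, 1 panel per gene and 1 point per library; lines join libraries of the same replicate number. In P300 cells every line falls toward EtOH. In GFP cells the lines of HIST1H2BO run in both directions, and those of RMRP fall toward EtOH by less than in P300 cells.

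The 7 calls lean on the pairing and on a spread shared over genes. The fit has 1 residual degree of freedom and a common dispersion of 0.408, against 0.0119 in the GFP libraries, and its estimated prior degrees of freedom were infinite, so each gene was held to the general trend and not to its own scatter. The newer edgeR method estimated 6.77 prior degrees of freedom, and its smallest adjusted p was 1.00. Without the block edgeR called 0 genes (130 at an unadjusted p under 0.05), with a filter of at least 5 CPM in 2 libraries 0 (213), and with all libraries thinned to the shallowest 0 (218). DESeq2 called TSC22D3, PDK4 and RMRP, and limma-voom called RMRP. In an edgeR fit of all 10 libraries, 0 genes were called higher in P300 Dex and 2824 had an unadjusted p under 0.05. Leaving out P300 EtOH 1 from that fit gave 2357 rises and 907 falls, leaving out P300 Dex 1 gave 2 rises, and leaving out P300 Dex 2 or P300 EtOH 2 gave 0.

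The promoters of the 3 genes that rose in both constructs and were at least 2-fold higher in both P300 pairs are shown, since their ratios were large in each pair. The sequences run from 250 bases before to 50 after the RefSeq start on GRCh38.p14, on the gene's own strand, with capitals for the receptor's 6-base core TGTTCT and the CCAAT box on either strand. FKBP5 lies at chr6:35688866-35689165 (minus strand), TSC22D3 at chrX:107716459-107716758 (minus strand) and PDK4 at chr7:95596467-95596766 (minus strand).
FKBP5: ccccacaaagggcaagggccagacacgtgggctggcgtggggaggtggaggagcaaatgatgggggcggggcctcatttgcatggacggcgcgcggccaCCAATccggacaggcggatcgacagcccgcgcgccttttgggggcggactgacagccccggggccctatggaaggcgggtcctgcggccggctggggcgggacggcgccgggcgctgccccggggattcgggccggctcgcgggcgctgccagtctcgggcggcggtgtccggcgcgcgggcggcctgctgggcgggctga
TSC22D3: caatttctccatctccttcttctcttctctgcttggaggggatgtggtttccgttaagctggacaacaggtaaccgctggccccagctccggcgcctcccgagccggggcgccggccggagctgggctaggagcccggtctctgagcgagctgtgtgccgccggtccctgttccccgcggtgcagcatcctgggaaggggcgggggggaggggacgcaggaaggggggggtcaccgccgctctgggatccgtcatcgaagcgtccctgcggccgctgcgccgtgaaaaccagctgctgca
PDK4: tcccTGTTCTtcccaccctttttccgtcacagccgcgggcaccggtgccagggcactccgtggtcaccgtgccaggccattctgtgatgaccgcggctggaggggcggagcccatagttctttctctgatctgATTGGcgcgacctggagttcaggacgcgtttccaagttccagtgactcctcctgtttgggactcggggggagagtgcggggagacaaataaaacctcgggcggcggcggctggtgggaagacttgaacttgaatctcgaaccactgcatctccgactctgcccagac

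Of these 3, the PDK4 window alone held the core, and those of PDK4 and FKBP5 held a CCAAT box. Over 35116 RefSeq promoters of this length, 14.8% held TGTTCT, 34.6% held CCAAT, and the full receptor element, TGTTCT and its reverse complement facing each other across 3 bases, was in 1 of them (0.00285%). Of the 36 genes on a list of glucocorticoid-induced genes, 30 matched a RefSeq promoter, and 4 of these held the core, 13 the CCAAT box and 0 the full element; both strands were searched. A match is a stretch of letters and not a binding site, and the windows leave out distal elements.

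Most of the 36 glucocorticoid-induced genes had higher values with dexamethasone in both pairs. Of the 34 tested members 4 rose and 0 fell, against 0.042% and 0% of all genes tested. Of the 34, 28 (82.4%) were above 0 in both pairs, against 32.8% of all genes. 1 member, SPSB1, was below 0 in both pairs (2.94%, against 15.8% of all genes). The median log2 ratio of the members was 0.51 in pair 1 and 1.86 in pair 2, where the median of all genes tested was 0.02 and 0.48. In GFP cells 30 of the 34 rose, against 1.02% of all genes tested there. The medians of the 3 GFP pairs were 1.27, 0.93 and 1.21. Members chosen from earlier knowledge of these data are not independent evidence of a direction. ZBTB16, a zinc finger repressor with counts of 0 and 7 in P300 Dex and 0 in both P300 EtOH libraries, and METTL7A, with 31 and 7 counts against 0 and 0, were too low to be tested.

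**Figure D2:**
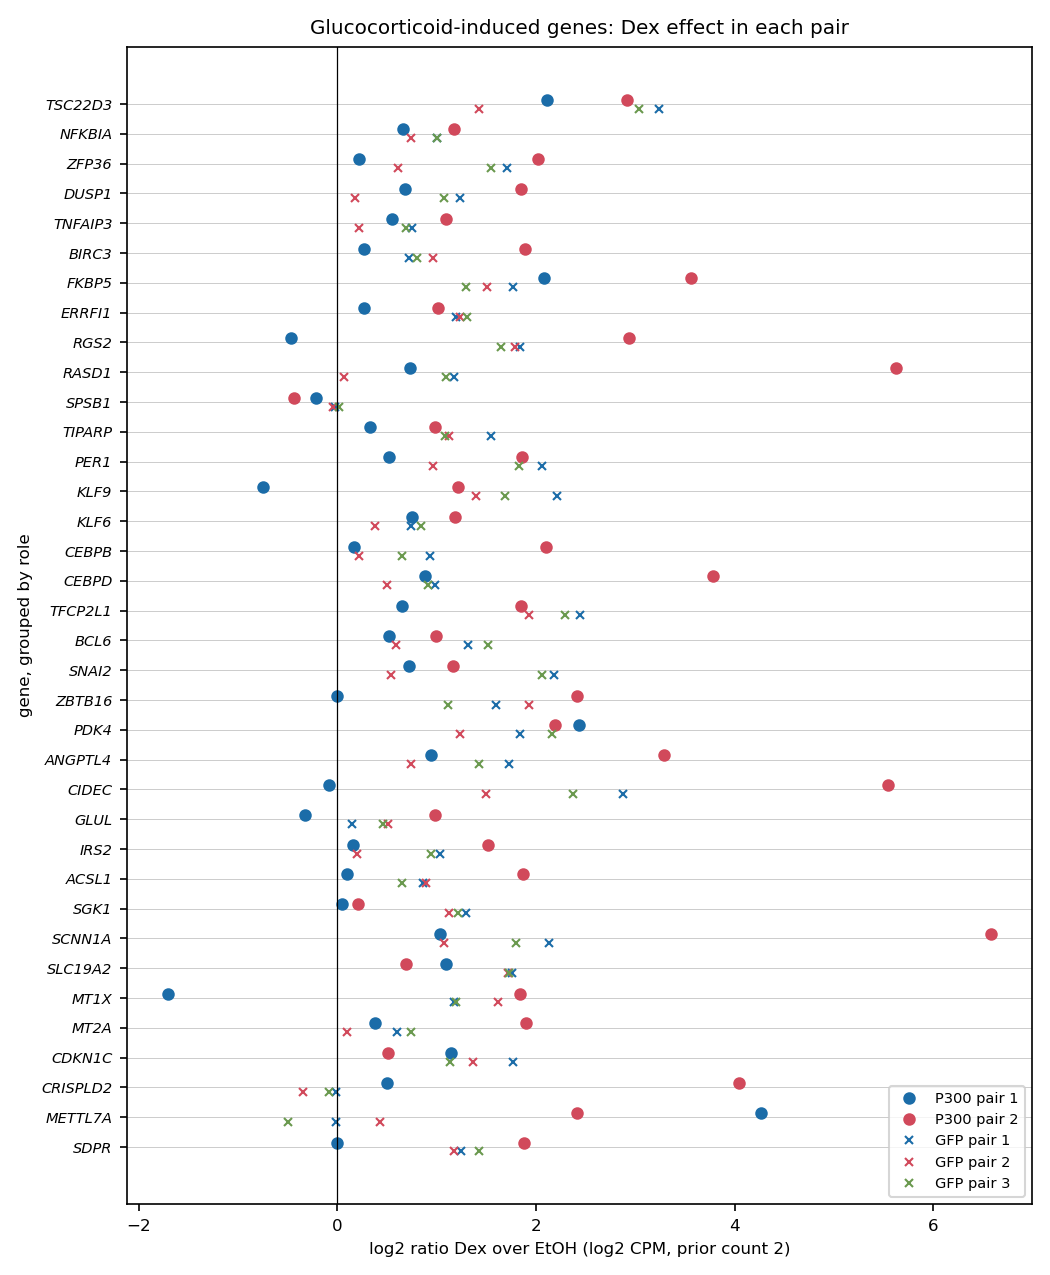
Log2 ratio of Dex over EtOH for each of the 36 glucocorticoid-induced genes (rows), 1 filled point per P300 pair and 1 cross per GFP pair. P300 pair 2 lies right of pair 1 for most genes, and RGS2, SPSB1, KLF9, CIDEC, GLUL and MT1X are left of 0 in pair 1.

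Brakes on inflammation were above 0 in both pairs for all 6 members (100%), against 32.8% of all genes tested. NFKBIA, the inhibitor that holds NF-kB in the cytoplasm, had 249.6 and 513.0 CPM in P300 Dex, against 157.6 and 227.7 CPM in P300 EtOH, with log2 ratios of 0.66 (0.56 to 0.76) and 1.17 (1.04 to 1.31). DUSP1, a phosphatase that ends MAP kinase signalling, had 339.6 and 1072 CPM in P300 Dex, against 211.2 and 296.3 CPM in P300 EtOH. Its groups do not overlap, which holds for 16% of all genes with P300 Dex the higher, and its fitted log2 change of 1.17 ± 0.36 did not pass (SE, edgeR adjusted p = 0.855). ZFP36, which promotes decay of cytokine messages, was at 0.22 and 2.02, TNFAIP3, a ubiquitin-editing inhibitor of NF-kB, at 0.55 and 1.099, and BIRC3, an inhibitor of apoptosis, at 0.27 and 1.89, all as log2 ratios in pair 1 and pair 2.

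Feedback regulators of growth signals were less even. ERRFI1, an inhibitor of EGF receptor kinases, was at 0.27 and 1.02 on the log2 scale in pairs 1 and 2, and TIPARP, a PARP family enzyme, at 0.33 and 0.98, against 1.19 to 1.31 and 1.09 to 1.54 in the GFP pairs. RGS2, which quiets G protein signals, had 121 and 67 counts in P300 Dex, against 158 and 2 counts in P300 EtOH, so its pair 1 was at -0.47 and its pair 2 at 2.94. RASD1, a small GTPase induced by dexamethasone, had 77 and 78 counts in P300 Dex, against 43 and 0 counts in P300 EtOH. SPSB1, an adaptor of ubiquitin ligases, was at -0.21 and -0.43, and at -0.03, -0.04 and 0.01 in the GFP pairs.

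Among transcription factors, 7 of 8 tested members (87.5%) were above 0 in both pairs, against 32.8% of all genes tested. PER1, a core component of the circadian clock, had 147.6 and 336.8 CPM in P300 Dex, against 102.5 and 92.7 CPM in P300 EtOH, with log2 ratios of 0.53 (0.40 to 0.66) and 1.86 (1.66 to 2.07). KLF6 was at 0.75 and 1.19, TFCP2L1 at 0.66 and 1.85, BCL6 at 0.52 and 0.99, and CEBPB at 0.17 and 2.10. SNAI2, a repressor of epithelial genes, had 115 and 2 counts in P300 Dex, against 65 and 0 counts in P300 EtOH, so only pair 1 measured it. KLF9, a repressor that spreads the glucocorticoid response in time, went the other way in pair 1. It had 23.4 and 20.3 CPM in P300 Dex, against 39.3 and 8.64 CPM in P300 EtOH, which is -0.75 (-1.01 to -0.49) and 1.21 (0.54 to 2.00), while the GFP pairs were at 2.22, 1.399 and 1.69.

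Metabolic genes other than PDK4 did not pass. ANGPTL4, a secreted inhibitor of lipoprotein lipase, had 65.3 and 117.6 CPM in P300 Dex, against 34.0 and 11.8 CPM in P300 EtOH. The groups did not overlap, as for 16% of all genes with P300 Dex the higher. The log2 ratios were 0.94 (0.73 to 1.16) and 3.29 (2.76 to 3.94) with a fit of 1.96 ± 0.52 (SE, edgeR adjusted p = 0.319). IRS2, an adaptor of the insulin receptor, was at 0.16 and 1.52, ACSL1, which activates long-chain fatty acids, at 0.09 and 1.87, and GLUL, glutamine synthetase, at -0.32 and 0.98. CIDEC, a lipid droplet protein, had 13 and 74 counts in P300 Dex, against 13 and 0 counts in P300 EtOH.

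SGK1, in the group of transport and metal genes, had the fitted log2 change nearest 0 of the 34 tested members, at 0.02. This kinase, which keeps sodium channels at the membrane, had 168.5 and 72.3 CPM in P300 Dex, against 163.4 and 62.7 CPM in P300 EtOH. Both log2 ratios, 0.04 (-0.06 to 0.15) and 0.21 (-0.06 to 0.48), had counting intervals that include 0, although the gene was well measured. In GFP cells SGK1 had 148.2, 130.7 and 139.8 CPM with dexamethasone, against 60.02, 59.6 and 60.1 CPM with ethanol, log2 ratios of 1.30, 1.13 and 1.22. The ethanol level of P300 EtOH 1 was thus near that of GFP Dex, and that of P300 EtOH 2 near GFP EtOH. The difference of the responses, P300 minus GFP, was -1.11 ± 0.44 (SE, edgeR adjusted p = 0.508), which does not pass.

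SCNN1A, a subunit of the epithelial sodium channel, had 113 and 505 counts in P300 Dex, against 51 and 1 counts in P300 EtOH, log2 ratios of 1.04 (0.57 to 1.57) and 6.58 (4.62 to 12.4). SLC19A2, a thiamine transporter, was at 1.099 and 0.69. The metallothioneins, which bind zinc and copper, differed. MT2A had 398.2 and 511.5 CPM in P300 Dex, against 306.7 and 137.2 CPM in P300 EtOH, and MT1X had 10.2 and 15.2 CPM in P300 Dex, against 33.7 and 4.09 CPM in P300 EtOH. MT1X was at -1.70 in pair 1 (-2.09 to -1.37) and 1.85 in pair 2 (0.92 to 3.06), where the GFP pairs were at 1.17, 1.62 and 1.20. Of the remaining members, CDKN1C, a cell cycle inhibitor, was at 1.14 and 0.51, SDPR, a caveolar protein, at 0.00 and 1.89, and CRISPLD2, a secreted protein, had 473 and 25 counts in P300 Dex, against 314 and 0 counts in P300 EtOH.

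Across the whole transcriptome the 2 pairs did not resemble each other. Over 16652 genes their log2 ratios correlated at r = 0.00206 and 48.6% had the same sign, while any 2 of the GFP pairs correlated at 0.208 to 0.292. Genes are not independent replicates, and these correlations are descriptions. Among 9823 genes with a mean of at least 10 CPM, r was 0.0108 between the P300 pairs and 0.282 to 0.569 between GFP pairs. The SD over genes was 1.07 in pair 1 and 2.08 in pair 2, against 0.424 to 0.493 in the GFP pairs.

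**Figure D3:**
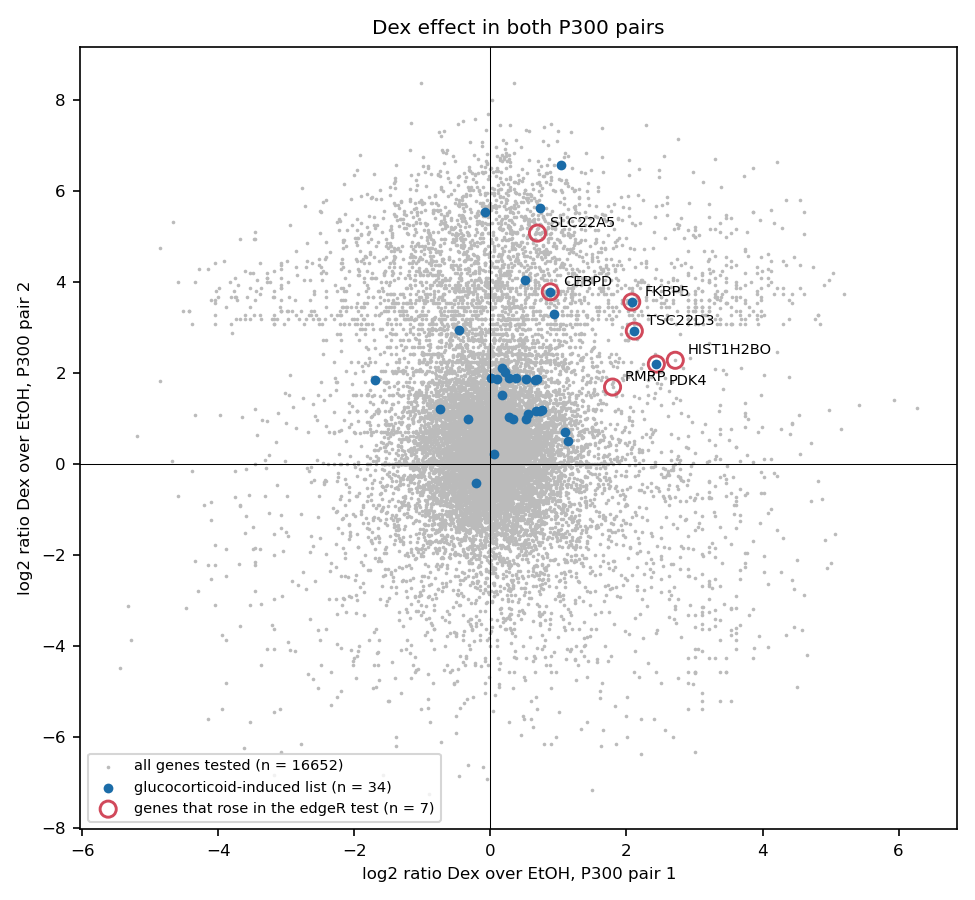
Log2 ratio of Dex over EtOH in P300 pair 1 (x axis) and pair 2 (y axis) for the 16652 tested genes (grey), the 34 tested glucocorticoid-induced genes (blue) and the 7 called genes (red rings). The grey cloud has no slope and is wider along pair 2, and 28 of the 34 blue points lie up and right of both zero lines.

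The spread was least among the most expressed genes. Among 4118 genes with a mean of at least 50 CPM the SD was 0.389 in pair 1 and 0.774 in pair 2, against 0.262 in the GFP pairs on average. Among 4491 genes of 2 to 10 CPM it was 1.38 and 2.79, against 0.526 in GFP pairs, and 37.1% of them were at 0 in P300 EtOH 2. At least 2-fold higher in both pairs were 977 genes (5.87%), and at least 2-fold lower in both were 331 (1.99%). Of the 977, 709 (72.6%) had no count in P300 EtOH 2, so counts of this kind lean on 1 shallow library and are given without a test. In the group at 50 CPM or more only 22 genes (0.534%) were 2-fold higher in both pairs and 0 were 2-fold lower.

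**Figure D4:**
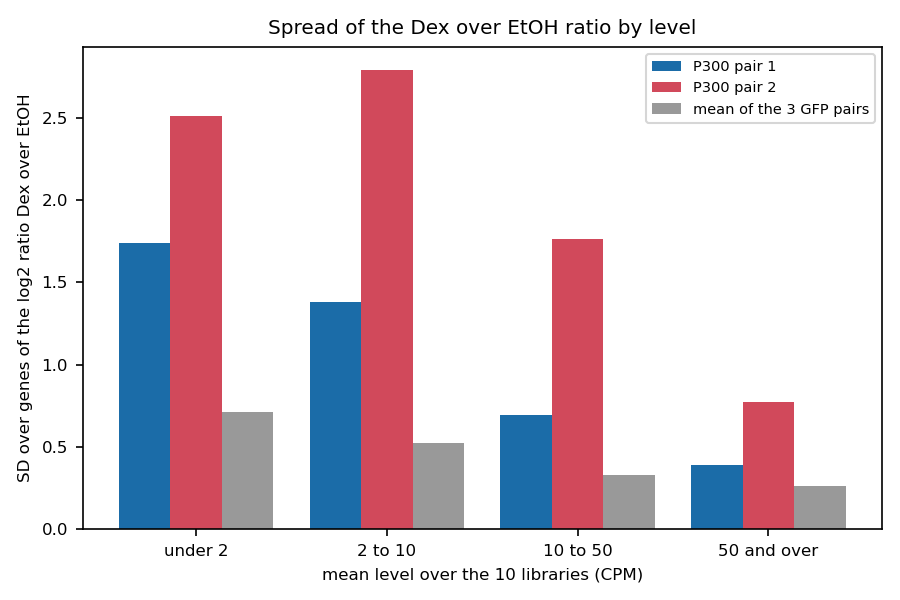
SD over genes of the log2 ratio of Dex over EtOH (y axis) by mean level over the 10 libraries (x axis, CPM), for P300 pair 1, P300 pair 2 and the mean of the 3 GFP pairs. P300 pair 2 is the widest at each level, with its maximum at 2 to 10 CPM, and all 3 are narrowest at 50 CPM and over.

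The genes that responded in GFP cells were followed into P300 cells, where they had not been chosen. Of the 171 genes that rose in GFP cells, 164 were tested in P300 cells, 94 (57.3%) were above 0 in both pairs and 6 (3.66%) below 0 in both, against 32.8% and 15.8% of all genes tested. Of the 164, 19 (11.6%) were at least 2-fold higher in both pairs, against 5.87% of all. Besides TSC22D3, PDK4, FKBP5 and SCNN1A, these included TCF19, with 99 and 416 counts in P300 Dex, against 43 and 23 counts in P300 EtOH, and CCHCR1, with 194 and 782 counts against 75 and 100 counts. Neither passed the test (edgeR adjusted p = 1.00 for both). Among the 19, no count was found in P300 EtOH 2 for EDN3, FAM105A, KCNJ11, CES4A, AL021068.1, NPM1P30, EIF4BP2, PA2G4P4, RP11-815J21.1 and RP11-180P8.3. The share of 11.6% thus leans on that shallow library. So does the 5.87% of all genes, since 709 of those 977 genes (72.6%) had no count there. The count below 0 in both pairs depends on scaling, at 13 with library sizes alone and 9 with RLE factors. Over all 16652 genes that count was 2632 with TMM factors, 3464 with library sizes alone and 3453 with RLE factors. With TMM factors the 6 were IRAK3, GADD45B, RASSF4, SSX2IP, SH3TC1 and SPRY2, and apart from IRAK3 their log2 ratios were between -0.04 and -0.55. IRAK3, a brake on Toll-like receptor signals that rose by 2.33 on the log2 scale in GFP cells, was at -1.20 and -2.24 in the P300 pairs (interaction -4.28, edgeR adjusted p = 0.477), on counts of 6 and 12 in P300 Dex, against 15 and 17 in P300 EtOH.

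Of the 106 genes that fell in GFP cells, 105 were tested in P300 cells, where 0 fell, as among all genes tested (0%). Of the 105, 30 (28.6%) were below 0 in both pairs, against 15.8% of all genes, and 19 (18.1%) above 0 in both, against 32.8%. C5orf45 was the member of that group with the smallest unadjusted p in the P300 fit, with 73.3 and 67.9 CPM in P300 Dex, against 112.8 and 148.2 CPM in P300 EtOH and log2 ratios of -0.62 and -1.12 (edgeR adjusted p = 1.00). PTGS2, which makes prostaglandins in inflammation, was at -0.52 and -0.56 in P300 cells and -0.57, -0.39 and -0.64 in GFP cells. Among the 19 above 0 in both pairs were LIF, FOSB, MAFK, NAB2 and HMOX1. MAFK, a small Maf transcription factor, was at 0.60 and 1.23 in P300 pairs and fell by 0.66 in the GFP fit (interaction 1.58, edgeR adjusted p = 0.477).

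**Figure D5:**
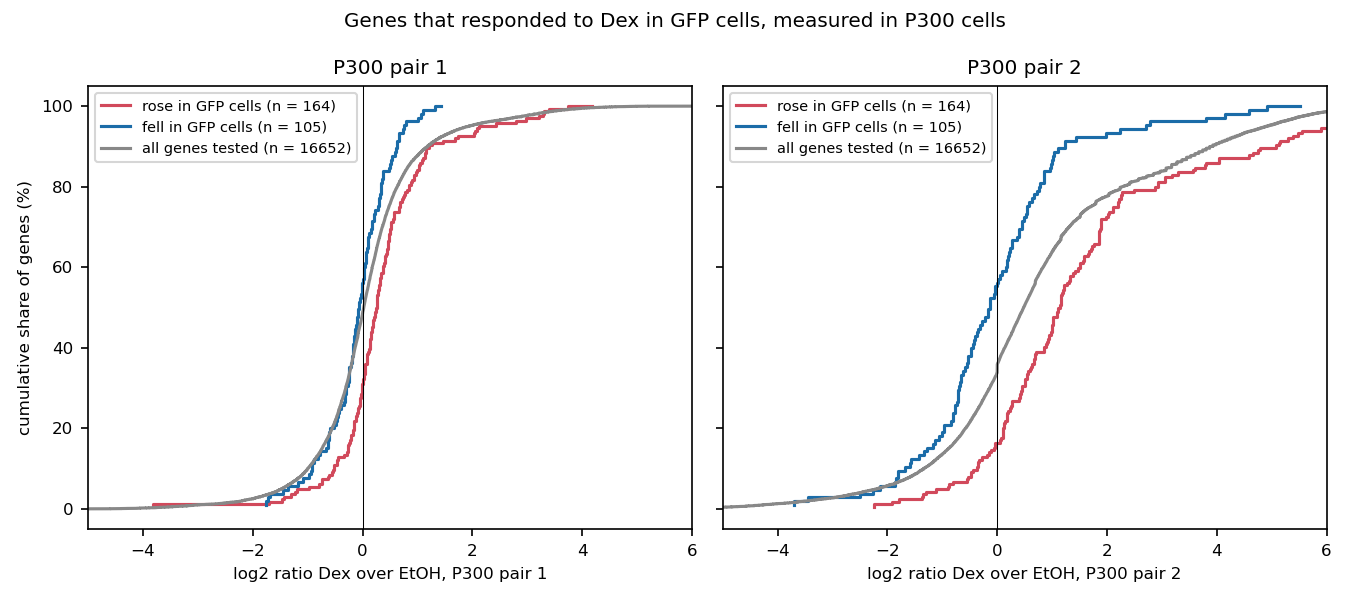
Cumulative share of genes (y axis, percent) by log2 ratio of Dex over EtOH in P300 pair 1 (left) and pair 2 (right), for 164 genes that rose and 105 that fell in GFP cells and for all 16652 tested genes. The red curve lies right of the grey one in both panels, and the blue curve lies left of grey mainly in pair 2.

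Inflammatory genes known to be repressed by glucocorticoids had no call in P300 cells. Of 17 tested members 0 rose and 0 fell, against 0.042% and 0% of all genes tested. With so few calls, 0 in a list of this size does not set it apart. In both pairs 5 (29.4%) were below 0 and 5 (29.4%) above 0, against 15.8% and 32.8% of all genes tested. In GFP cells 5 of 18 fell, against 0.635% of all genes tested there. The common dispersion was 0.0119 in the GFP fit and 0.408 in the P300 fit, so their call counts are not comparable. IRF1, an interferon-pathway transcription factor, had 217.5 and 277.9 CPM in P300 Dex, against 242.5 and 352.7 CPM in P300 EtOH, log2 ratios of -0.16 (-0.25 to -0.06) and -0.34 (-0.46 to -0.22), where the GFP pairs were at -0.65, -0.95 and -0.48. The chemokine CXCL2 had 73.0 and 121.9 CPM in P300 Dex, against 28.7 and 50.5 CPM in P300 EtOH. Its groups did not overlap, as for 16% of all genes with P300 Dex the higher. Its log2 ratios were 1.34 (1.13 to 1.57) and 1.27 (0.99 to 1.57), and its fit of 1.21 ± 0.45 did not pass (SE, edgeR adjusted p = 1.00). The GFP pairs of CXCL2 were at 0.45, -0.96 and 0.08, with an interaction of 1.48 ± 0.42 (SE, edgeR adjusted p = 0.477). CXCL3, a chemokine of the same list, was below 0 in both P300 pairs, at -1.76 and -0.80.

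LIF, a cytokine of the interleukin 6 family, had 86.7 and 125.2 CPM in P300 Dex, against 69.0 and 85.9 CPM in P300 EtOH. Its dexamethasone libraries were the higher in both P300 pairs, by 0.33 (0.17 to 0.49) and 0.54 (0.32 to 0.78), and the lower in each of the 3 GFP pairs, by -0.73, -1.12 and -0.52 on the log2 scale. Immediate early genes, which growth signals switch on within minutes, had 0 calls among 24 tested in P300 cells, against 0.042% of all genes tested. In GFP cells 11 of 24 fell, against 0.635% of all genes tested there. IER5 was at -0.17 and -0.48 in P300 cells and at -0.79, -0.79 and -0.97 in GFP cells. JUN, an AP-1 subunit, was at -0.04 and -0.58, and EGR1 at -0.43 and 0.18. NR4A1, an orphan nuclear receptor, had 45.2 and 618.2 CPM in P300 Dex, against 88.5 and 425.8 CPM in P300 EtOH, so the pairs differed more from each other than the treatments did.

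The receptor and its partners showed no call in either direction, where 0.042% of all genes tested were called higher and 0% lower. NR3C1 had 213.7 and 128.8 CPM in P300 Dex, against 225.1 and 110.4 CPM in P300 EtOH, and CREBBP had 286.5 and 323.6 CPM against 298.2 and 227.7 CPM. Of 21 tested receptor partners and coregulators 7 were above 0 and 6 below 0 in both pairs, shares of 33.3% and 28.6%, against 32.8% and 15.8% of all genes. That balance turns with the scaling, to 3 above and 9 below with library sizes alone and 4 above and 9 below with RLE factors. The baseline moves too. Of all 16652 genes, 5456 were above 0 and 2632 below 0 in both pairs with TMM factors. With library sizes alone these counts were 4522 and 3464, and with RLE factors 4789 and 3453. The chaperone HSP90AB1 was at 0.23 and 0.07 on the log2 scale in pairs 1 and 2, and HSP90AA1 at 0.14 and 0.72. Among heat shock genes 0 of 9 passed, against 0.042% of all genes tested, and DNAJB1 was at 0.73 and 0.69.

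Most genes had higher values with dexamethasone in pair 2, where 64.1% of all genes tested were above 0, against 51.5% in pair 1. Interferon-induced genes had 9 of 9 tested members above 0 in pair 2 and 3 of 9 in pair 1. Of these, 0 passed, against 0.042% of all genes tested. MX1, an antiviral GTPase, had 641.4 and 1645 CPM in P300 Dex, against 738.4 and 699.4 CPM in P300 EtOH. Genes of the G2 and M phases had 14 of 15 members above 0 in pair 2 and 4 of 15 in pair 1. PLK1, a mitotic kinase, had 26.7 and 177.3 CPM in P300 Dex, against 37.7 and 36.4 CPM in P300 EtOH, log2 ratios of -0.50 and 2.28. Of 12 lung epithelial markers 7 (58.3%) were above 0 in pair 2 and 4 (33.3%) in pair 1. With library sizes alone in place of TMM factors the median of all genes in pair 2 shifts by -0.31. Then 6 of the 9 interferon genes and 12 of the 15 G2 and M genes are above 0 in that pair. Of all 16652 genes, 9166 are above 0 in pair 2 with library sizes alone, against 10682 with TMM factors and 9562 with RLE factors.

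Transcripts of the mitochondrial genome, which encode respiratory chain subunits and mitochondrial ribosomal RNA, mostly had lower values with dexamethasone. Of 15, 12 (80%) were below 0 in both pairs, against 15.8% of all genes. In the test 0 passed, against 0.042% of all genes. They summed to 34700 and 41310 CPM in P300 Dex, against 45670 and 45130 CPM in P300 EtOH. With TMM factors the difference was thus larger in pair 1. The same sums were 29970, 40120 and 28500 CPM in GFP Dex, against 31030, 42880 and 29830 CPM in GFP EtOH. That contrast between the pairs depends on scaling. With library sizes alone 13 of the 15 were below 0 in both pairs, as were 3464 of all 16652 genes, against 2632 with TMM factors. The median log2 ratios of the 15 were then -0.51 in pair 1 and -0.48 in pair 2, against -0.49 and -0.17 with TMM factors.

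Whether dexamethasone acted differently in P300 and GFP cells was tested in 1 fit of all 10 libraries. Of 19843 genes, 0 passed the interaction test of edgeR (0%), 1794 had an unadjusted p under 0.05, limma-voom called 0, and DESeq2 called 56 genes above 0 and 15 below. Among genes with a mean of at least 1 CPM, the smallest p with a larger response in P300 cells belonged to CA9, SALL4, ITIH2, LINC00926 and FAM19A5, each with at most 2 counts in either P300 EtOH library. CA9, a carbonic anhydrase induced by hypoxia, had 30 and 158 counts in P300 Dex, against 0 and 0 counts in P300 EtOH, while it had 9.52, 19.9 and 2.57 CPM in GFP Dex, against 7.26, 22.7 and 2.36 CPM in GFP EtOH. The P300 EtOH libraries, and not the P300 Dex libraries, thus stood apart from the GFP libraries for CA9.

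The smallest p with a lower response in P300 cells belonged to SNHG16, AC097461.4, DONSON, MORF4L1P1 and NBN. SNHG16, a host gene of small nucleolar RNAs, had 12.3 and 12.4 CPM in P300 Dex, against 48.1 and 44.5 CPM in P300 EtOH. Here the pairs were alike, with log2 ratios of -1.95 (-2.29 to -1.65) and -1.83 (-2.27 to -1.43), and the GFP libraries lay between 9.82 and 21.3 CPM. The fitted change in P300 cells was -2.01 ± 0.65 (SE, edgeR adjusted p = 1.00) and the interaction -2.30 ± 0.49 (SE, edgeR adjusted p = 0.477). NBN, a subunit of the complex that senses DNA double-strand breaks, had 55.4 and 33.6 CPM in P300 Dex, against 106.5 and 71.4 CPM in P300 EtOH.

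Genes below 0 with the smallest p in the P300 fit, none of them called, were CRTAM, RIOK3, XDH, RP11-253M7.6 and CTC-490E21.10. XDH, xanthine dehydrogenase of purine breakdown, had 91.0 and 36.1 CPM in P300 Dex, against 145.5 and 141.8 CPM in P300 EtOH, and log2 ratios of -0.68 (-0.81 to -0.55) and -1.97 (-2.21 to -1.74). RIOK3, a kinase of ribosome maturation, was at -0.02 and -2.86, so its low p rests on pair 2. RP11-253M7.6 had 0 and 7 counts in P300 Dex, against 68 and 52 counts in P300 EtOH.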

How the data were processed

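The values are raw counts of reads for 25538 genes, deposited by the authors in 1 table with a column per library, per the file headers; no normalization had been applied to them. Per the submitters' processing notes, the build was GRCh37 and the tools were HTSeq 0.6.1p1, STAR 2.4.2a, cutadapt and DESeq2 1.10.1. The sources used here do not give the annotation or whether counting used strand. Genes that overlap, antisense genes and close copies, such as histone genes, RN7SL1 and RN7SL2 or metallothioneins, are therefore uncertain.

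EP300 was removed before library sizes. edgeR 4.0.16 in R 4.3.3 (TMM factors, filterByExpr, quasi-likelihood test by its default, earlier method, two-sided, Benjamini-Hochberg threshold of 0.05) was fitted to the 4 P300 libraries, the 6 GFP libraries and, for the interaction, all 10, each with replicate number as a block. The SE printed with an edgeR log2 change is its absolute value divided by the square root of the F statistic. Log2 CPM use a prior count of 2. CPM and pair ratios use TMM factors from all 10 libraries, while each fit uses factors from its own libraries. A fitted change can therefore lie outside its pair ratios. Libraries were paired by the replicate numbers in the labels. Deviations from group means correlated at r = 0.119 to 0.592 between the 13 pairs of libraries with the same number. Between 24 pairs with different numbers r was -0.474 to 0.239. In the P300 groups, of 2 libraries each, the deviations are mirror images, so many of these values are sign flips of others. P300 EtOH 1 was at 0.275 with P300 Dex 1 and at -0.275 with P300 Dex 2. The ranges therefore do not test the pairing. Replicates differed by far more than sampling noise (chi-square over degrees of freedom of 118 in P300 Dex and 42.3 in P300 EtOH). Alternatives were no block, EP300 kept, RLE factors or none, other filters, DESeq2 1.42.0, limma-voom 3.58.1 with and without quality weights, thinning, all 10 libraries, each P300 library left out and, added after seeing the data, edgeR's newer quasi-likelihood method. The steps were run on counts simulated with the spread that the P300 and interaction fits had estimated. Such data cannot show whether that spread is right. Totals without EP300 were 1973171 to 8992790 counts in the P300 libraries.

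Named genes are the called genes, filled to 5 per direction by the smallest p, all glucocorticoid-induced members, up to 6 members of the other lists by level, NR3C1 and CREBBP, and the 5 smallest interaction p per direction. Genes named from the GFP responders and the RNAs without poly(A) tails were chosen after their values were seen. The comparison and the lists were chosen with earlier results of these data known. Promoters come from RefSeq on GRCh38.p14, matched by symbol.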

Additional observations from a re-analysis of the deposited data

Results flagged for a closer look

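For 19 of the genes named in the text, both P300 pairs moved one way and all 3 GFP pairs the other way with dexamethasone. SALL4, LINC00926, DONSON and NBN were named for a small interaction p, a choice that favours such opposite moves. The share of all tested genes that moved this way was not counted. The difference of the responses is given as P300 minus GFP on the log2 scale, from edgeR's interaction test, in which no gene passed after adjustment. It was 5.74 for SALL4, a stem cell transcription factor, and 5.57 for LINC00926, a long noncoding RNA (edgeR adjusted p = 0.477 for both), each of which had 2 and 0 counts in P300 EtOH. It was 1.23 for LIF (edgeR adjusted p = 0.477). It was 0.783 for CRISPLD2, which had no count in P300 EtOH 2 (edgeR adjusted p = 0.861). NFKB2, an NF-kB subunit, differed by 0.627 (edgeR adjusted p = 0.613). Below 0, it was -2.72 for DONSON, a replication fork protein, and -1.27 for NBN (edgeR adjusted p = 0.477 for both). For NCOA3, a nuclear receptor coactivator, it was -0.327 (edgeR adjusted p = 0.738).

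The other 11 were named after their values were seen, and 10 of them from the genes called in GFP cells, so their GFP direction was fixed by that choice. Among genes that fell in GFP cells the difference was 1.58 for MAFK, 1.83 for NAB2, a corepressor of EGR proteins, 1.18 for FOSB, an AP-1 subunit, and 0.710 for HMOX1, heme oxygenase 1. Among genes that rose in GFP cells it was -4.28 for IRAK3, -1.17 for RASSF4, -1.05 for SSX2IP, -0.812 for SPRY2, -0.794 for SH3TC1 and -0.564 for GADD45B. For TERC, the RNA of telomerase, it was 1.54. The edgeR adjusted p of these genes was between 0.477 and 0.683.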

How the results depend on the processing

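The number of genes higher in P300 Dex, 7 with the replicate block, was 0 without it, 0 with edgeR's newer quasi-likelihood method (an alternative chosen after seeing the data), 0 with the stricter filter, 0 after thinning, 0 with all 10 libraries with or without the block, 3 with DESeq2 and 1 with limma-voom, with and without quality weights. It stayed at 6 or 7 with EP300 kept, other factors or no filter. Leaving out each P300 library in turn gave 0 to 2357 higher and 0 to 907 lower genes, both maxima without P300 EtOH 1, where the lone sample left in a group is assumed to vary like the others. The causes were not tested. For the interaction DESeq2 called 56 genes higher and 15 lower, and leaving out a library gave 0 to 1572 higher and 0 to 437 lower. At 1.5-fold in both pairs 1811 genes were higher and 694 lower, and with 1 pair alone 2045 to 6029 higher and 1653 to 2262 lower. Each called gene kept its direction under 17 alternatives, and each kept its call under 5 or 6 of them. The median log2 change of the glucocorticoid-induced members was 0.499 to 1.60.

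Signs turned for the following genes. KLF9 was at -0.244 without the block, -0.494 with limma-voom (both forms), -0.0717 after thinning, -0.257 with the newer edgeR method, and -0.212 and -0.168 with all 10 libraries with and without the block. SGK1 was at -0.0401 with library sizes alone, -0.0141 with the stricter filter and -0.00324 after thinning, GLUL at -0.102 with limma-voom (both forms), and RGS2 at -0.0505 with the newer edgeR method. The interaction of TSC22D3 was 0.614 without the block, 0.305 and 0.243 with limma-voom without and with quality weights, and 0.0479 with numbers 1 and 2 alone. With 1 library left out, the P300 change ran from -0.684 to 9.19 for CRISPLD2 (-0.0479 without P300 EtOH 2), -0.353 to 0.858 for GLUL, -1.15 to 1.60 for KLF9 (-0.477 without P300 Dex 1 and -0.0344 without P300 Dex 2), -1.70 to 1.72 for MT1X (0.016 without P300 Dex 1), -0.592 to 3.16 for RGS2, -0.302 to 0.464 for SGK1 (-0.274 without P300 EtOH 2), -1.91 to 6.55 for SNAI2 and -0.814 to 0.0857 for SPSB1. The interaction ran from -0.512 to 9.32 for CRISPLD2, -0.0676 to 1.06 for PDK4, -0.333 to 3.26 for SLC22A5 and -0.861 to 0.619 for TSC22D3 (0.143 without P300 EtOH 2). Depth limits P300 EtOH 2 most.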
